A study of Homo sapiens with 8 samples.

Results

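The 51 genes described here are interferon-stimulated genes and genes that detect viral RNA or pass its signal on, measured in DLD1 cells, an established human colorectal cancer line. They were taken by name: every array probe that was not a control and carried the symbol of a member counted as that member's probe. All 51 were on the array, with 76 probes among 50599 probes and 36337 gene names, and 18 of them had several probes. For these the probe with the highest mean over the arrays stands for the gene. By role there were 5 RNA sensors, 6 signalling factors, 3 secreted ligands, 4 genes of the OAS family, 18 other antiviral effectors, 5 genes of the ISG15 system, 3 of an ADP-ribosylation group, and 7 further genes that interferon induces.

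The study asked how gene expression changes when UHRF1 is depleted and histone deacetylases (HDACs) are inhibited in colorectal cancer cells. UHRF1 is a nuclear protein that cells need to keep their DNA methylation through division. Transfection was with a control siRNA (siCONT) or with either of 2 siRNAs against UHRF1, siUHRF1-1 and siUHRF1-2, and the cells were kept for 48 h. They then received 300 nM trichostatin A (TSA), an HDAC inhibitor, or ethanol alone (mock), for 24 h. This gave 4 groups of 2 arrays: siCONT with mock, UHRF1-depleted cells with mock, siCONT with TSA, and UHRF1-depleted cells with TSA. All cells had been transfected, and every culture was of 1 line in which UHRF1 was lowered for a short time and not removed. The siRNAs are the replicates of a depletion group, and no group was given interferon or viral RNA. Nothing in the labels says whether the arrays of a siCONT group came from separate cultures, so the spread within such a group may be technical. The p-values measure only the spread between arrays, pooled over the 4 groups, and in the depletion groups that is the spread between siRNAs.

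Double-stranded or otherwise unusual RNA in the cytoplasm is bound by the helicases RIG-I (gene DDX58) and MDA5 (IFIH1), and in endosomes by TLR3. The helicases signal through MAVS and TLR3 through another adaptor to the transcription factors IRF3 and IRF7, which switch on interferon-β. Secreted interferon then acts through a complex with STAT2 and IRF9 that binds the interferon-stimulated response element (ISRE) in the promoters of genes that block viral entry, translation or release.

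The promoters of 6 members that the results below return to are shown, with matches to the ISRE core in capitals, because the ISRE is the sequence that these genes are known to share. Sequences are those of RefSeq (GRCh38.p14), 160 bases ending at the base before the annotated start, on the strand of the gene. The core searched was GAAA, any 2 bases, GAAA, on either strand, so that a match on the opposite strand reads TTTC, any 2 bases, TTTC, and neighbouring matches may overlap.
BST2 (chr19:17405631-17405790, minus strand): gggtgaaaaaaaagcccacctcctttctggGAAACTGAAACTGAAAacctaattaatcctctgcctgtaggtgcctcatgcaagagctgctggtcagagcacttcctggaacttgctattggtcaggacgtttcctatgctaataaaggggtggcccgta
IFI27 (chr14:94110576-94110735, plus strand): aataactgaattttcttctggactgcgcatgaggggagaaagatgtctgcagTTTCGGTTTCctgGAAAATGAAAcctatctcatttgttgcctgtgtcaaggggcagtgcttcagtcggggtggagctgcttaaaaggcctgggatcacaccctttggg
IFITM1 (chr11:313880-314039, plus strand): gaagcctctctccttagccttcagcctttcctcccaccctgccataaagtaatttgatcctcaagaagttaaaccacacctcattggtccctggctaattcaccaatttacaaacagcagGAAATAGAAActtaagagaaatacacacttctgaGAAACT
IFI6 (chr1:27672193-27672352, minus strand): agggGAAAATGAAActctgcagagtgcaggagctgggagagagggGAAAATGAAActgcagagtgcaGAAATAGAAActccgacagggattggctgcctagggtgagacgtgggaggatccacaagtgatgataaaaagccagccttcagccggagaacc
ISG15 (chr1:1013337-1013496, plus strand): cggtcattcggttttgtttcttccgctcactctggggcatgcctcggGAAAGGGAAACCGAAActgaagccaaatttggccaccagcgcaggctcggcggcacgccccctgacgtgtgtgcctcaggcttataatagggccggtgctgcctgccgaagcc
IFIT1 (chr10:89392463-89392622, plus strand): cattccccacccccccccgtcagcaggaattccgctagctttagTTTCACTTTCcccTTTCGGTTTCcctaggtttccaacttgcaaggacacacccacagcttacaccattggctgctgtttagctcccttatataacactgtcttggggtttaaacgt
In BST2 the matches began 130 and 124 bases before the start and overlapped, and in IFIT1 they began 116 and 103 bases before it. In IFITM1 the second match began 6 bases before the start and ran across it, so only its first letters are in the printed stretch.

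RefSeq windows of 300 bases, 250 before the start and 50 after it, were found for 41 of the 51 members (DDX58 under its current symbol, RIGI). Those of TRIM22, IFITM2, IRF3, DHX58, OAS2, OASL, IFIT2, MX2, IRF7 and USP18 were not matched. The ISRE core was present in the first listed window of 23 of the 41 members (56.1%), against 996 of 27305 genes (3.65%). The gamma-activated site (TTC, any 3 bases, GAA, which reads the same on both strands) was present in 12 (29.3%), against 7.88% of all windows. The median number of CpG dinucleotides in a window was 8 for the members and 14 for all genes. No match to the ISRE core was found in the windows of OAS1, SP100, UBE2L6 or DDX58. The matches are a description of letters and were not tested for binding.

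A level here is a log2 processed intensity from which the same array's 75th percentile was subtracted, so that a positive level lies above that percentile. Levels of one probe are not set against those of another. On an array, 43.3% to 48.0% of all probes were well above background. Within a siCONT group the arrays lay apart by 1.09 (TSA) and 1.18 (mock) times the noise of repeated spots, while the siRNAs of a depletion group did so by 10.5 (TSA) and 12.7 (mock) times. The siCONT arrays of an agent were therefore counted as 1 sample in every mean, which then has no SD. Beside each count of members stands the count from a fit with these arrays averaged to 1 sample. UHRF1 itself was left at 31.9% and 24.8% of its siCONT signal with mock (siUHRF1-1 and siUHRF1-2) and at 16.7% and 11.1% with TSA. The percentages under each agent refer to siCONT with that agent. In siCONT cells UHRF1 was itself lower with TSA (levels of 1.04 and 1.01) than with mock (1.98 and 2.01). All arrays shared 1 slide and 1 scan, but mock arrays lay in one row and TSA arrays in the other, so TSA and slide row cannot be told apart. Of the colon epithelial markers, all 7 (EPCAM, KRT8, KRT18, KRT20, CDH1, CDX2 and VIL1) were well above background on all 8 arrays.

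Of the 51 members, 36 were well above background on all 8 arrays, 6 on some and 9 on none. The 9 without a measurable level were IFNB1, CXCL10, CXCL11, RSAD2, TRIM22, IFI44, IFI44L, XAF1 and EPSTI1. In siCONT with mock 37 members were well above background on both arrays. DLD1 cells thus had measurable RNA for most of the sensors and signalling factors and none, on this array, for interferon-β or for either chemokine of the list. Testing was possible in at least 1 comparison for 41 members. Of these, 23 were called changed in at least 1 of 7 comparisons and 18 in none. How many of all genes were called in at least 1 of the 7 was not counted. The 23 therefore cannot show whether members changed more often than other genes. Shares of all genes are given below for each comparison by itself.

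**Figure D1:**
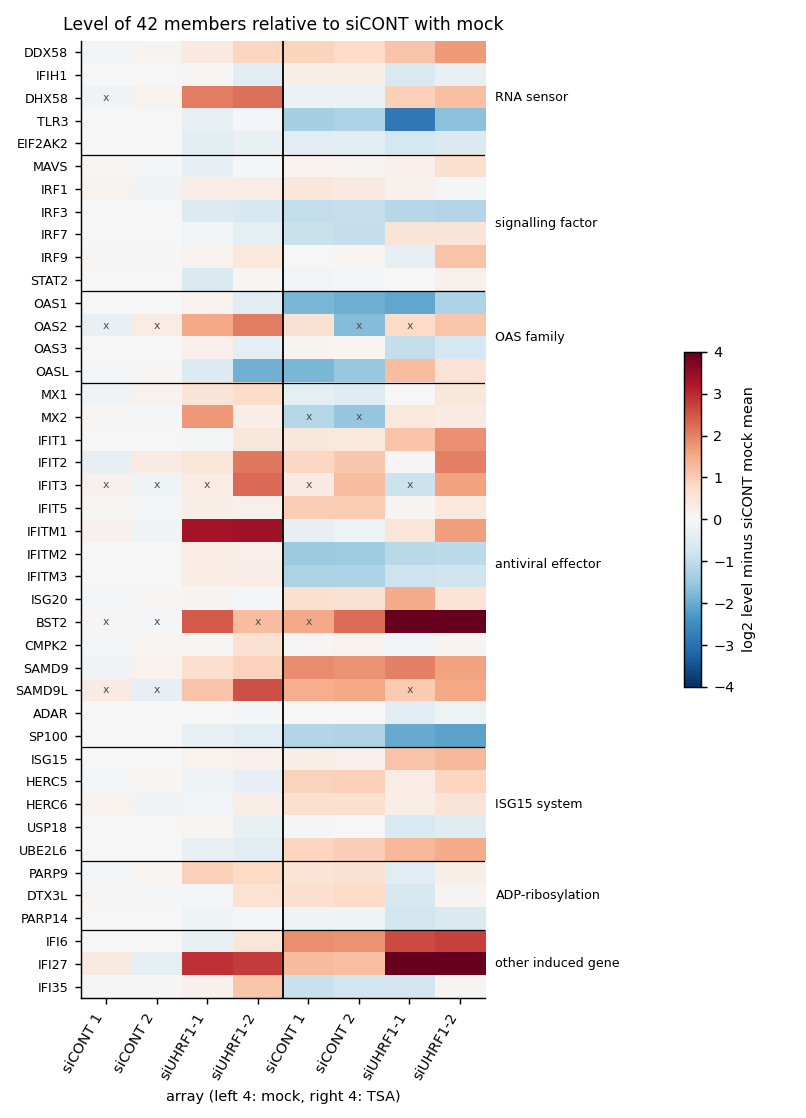
Levels of the 42 members that were well above background on at least 1 array, each minus its mean in siCONT with mock (log2 scale; the colours end at 4 above and below). Columns are the 8 arrays, rows are genes ordered by role, and a cross marks an array on which the probe was not well above background; BST2 and IFI27 are highest in UHRF1-depleted cells with TSA, whereas TLR3, OAS1 and SP100 lie lower on all 4 TSA arrays than on the mock arrays.

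UHRF1 depletion alone raised 3 members of 40 tested, IFITM1, IFI27 and DHX58, and lowered none. A call here is a limma adjusted p under 0.05 with at least a 2-fold change. Among all 16781 genes tested, 3.3% were called higher and 0.9% lower. With the siCONT arrays as 1 sample, limma called 0 members (6 at an unadjusted p under 0.05) and 0.0238% of all genes in either direction. The median change of the members was 0.18 on the log2 scale, against −0.10 over all genes, and 24 of the 40 changes were positive.

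TSA alone raised SAMD9, IFI6 and IFIT5 and lowered OAS1, OASL, IFITM2, TLR3, IFITM3 and SP100, of 39 members tested. Over all 17402 genes, 10.4% were called higher and 8.32% lower. Averaging the siCONT arrays left 0 members called by limma (10 at an unadjusted p under 0.05) and 1.65% of all genes. The median member change was 0.08 log2 units, beside −0.13 for all genes.

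In cells treated with TSA, UHRF1 depletion raised 7 members of 40 (IFI27, BST2, OASL, MX2, IRF7, DHX58 and IFIT1) and lowered none. The share of all genes called was 5.91% higher and 2.88% lower. With siCONT as 1 sample 0 members were called by limma (11 at an unadjusted p under 0.05), beside 0.797% of all genes, so every one of these 7 calls rests on taking the siCONT arrays as 2 samples. Leaving out either siCONT array with TSA left 1 call. The members' median was 0.19, beside 0.01 over all genes, and IFI27 and DHX58 were the members called in both UHRF1 comparisons.

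In UHRF1-depleted cells, where the replicates are different siRNAs on both sides, TSA raised 8 members of 41 and lowered 7. Those that rose were BST2, IFI6, OASL, IFI27, UBE2L6, IFIT1, ISG15 and SAMD9, and those that fell were IFITM1, TLR3, SP100, OAS1, IFITM2, IFITM3 and DHX58. Of all 17976 genes, 12.2% were called higher and 9.07% lower. With siCONT as 1 sample, 7 and 6 members were called, all but IFIT1 and OAS1, beside 18.2% of all genes. The median member change was −0.28, against −0.04 over all genes.

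Depletion plus TSA against siCONT with mock raised 10 members of 39 (BST2, IFI27, IFI6, SAMD9, IFIT1, DDX58, UBE2L6, ISG15, DHX58 and ISG20) and lowered 5 (TLR3, SP100, OAS1, IRF3 and IFITM2). Of all 17866 genes, 15.3% were called higher and 11.1% lower. With siCONT as 1 sample 6 were called higher (BST2, IFI27, IFI6, SAMD9, UBE2L6 and ISG15) and 4 lower (TLR3, SP100, IRF3 and IFITM2), beside 16.2% of all genes. The median change of the members was 0.26 and that of all genes −0.14.

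**Figure D2:**
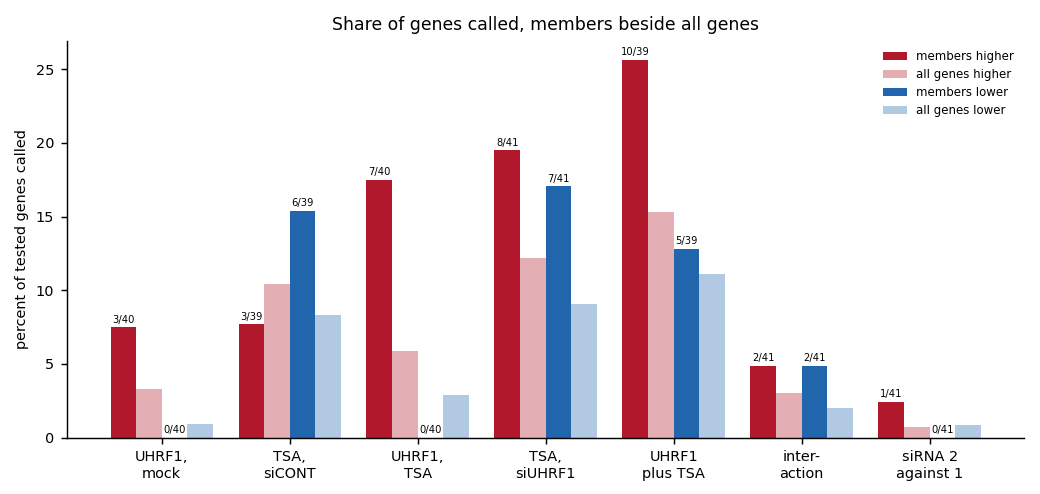
Percent of tested genes called higher (red) or lower (blue) in the 7 comparisons, for the members (dark bars, with the number called over the number tested) and for all genes (pale bars). The members' share of higher calls lies above that of all genes with UHRF1 depletion under TSA, 7 of 40 against 5.91%, and below it with TSA in siCONT cells, 3 of 39 against 10.4%. The members were chosen with earlier results of these data known. BST2 and MX2 entered the test of depletion under TSA only through the depleted arrays. The 7 calls rest on taking the siCONT arrays as 2 samples.

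Among the RNA sensors, DHX58 rose with UHRF1 depletion and TLR3 fell with TSA, while IFIH1 and EIF2AK2 were called in no comparison. DHX58 encodes LGP2, a helicase related to RIG-I that lacks its signalling domains. Its level was −3.49 and −3.18 in siCONT with mock, where the first array was not well above background, −1.29 and −1.14 in UHRF1-depleted cells with mock (siUHRF1-1, then siUHRF1-2), −3.56 and −3.58 in siCONT with TSA and −2.37 and −2.13 in UHRF1-depleted cells with TSA. Both depleted arrays lay above both siCONT arrays under either agent. DHX58 was called higher with depletion under mock (adjusted p = 0.00468), where it entered the test only through the depleted arrays. No exact change is given there, because 1 of the 2 siCONT arrays was not above background. Under TSA the change was 1.32 (SE 0.16, adjusted p = 0.0066). Both calls were lost with siCONT as 1 sample (adjusted p = 0.126 and 0.149). In depleted cells TSA lowered DHX58 by 1.04 log2 units, and this call held in that fit (adjusted p = 0.0343).

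TLR3, the endosomal receptor of double-stranded RNA, had levels of 0.80 and 0.82 in siCONT with mock and 0.51 and 0.76 in depleted cells with mock. They were −0.52 and −0.43 in siCONT with TSA and −2.06 and −0.84 in depleted cells with TSA. All 4 TSA arrays lay below all 4 mock arrays. TSA changed TLR3 by −1.29 (SE 0.37, adjusted p = 0.0361) in siCONT cells and by −2.08 (SE 0.37, adjusted p = 0.00681) in depleted cells. Only the second call held with siCONT as 1 sample (adjusted p = 0.319 and 0.0318). In depleted cells with TSA siUHRF1-1 lay 1.22 log2 units lower than siUHRF1-2.

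DDX58 had levels of −1.11 and −0.87 in siCONT with mock, −0.59 and −0.13 in depleted cells with mock, −0.11 and −0.20 in siCONT with TSA and 0.15 and 0.71 in depleted cells with TSA. The level of this probe was lowest in siCONT with mock and highest with depletion plus TSA, and the difference between these was the one called. It was 1.42 (SE 0.24, adjusted p = 0.00475), and the call was lost with siCONT as 1 sample (adjusted p = 0.0627). The other probe of DDX58, above background on all arrays, changed by 0.27 in that comparison and differed from the first by more than 1 log2 unit. It was lowest in siCONT with TSA and changed by −0.37 with TSA in siCONT cells and by −0.16 with depletion under mock. There the first probe changed by 0.84 and 0.63, the opposite sign. In the remaining pairwise comparisons both probes had positive changes. IFIH1, the sensor of long double-stranded RNA, had levels of 2.27 and 2.26, 2.31 and 1.80, 2.50 and 2.49 and 1.65 and 1.96 in the same order of groups. EIF2AK2, the kinase PKR that stops translation when it binds double-stranded RNA, had levels of 4.89 and 4.91, 4.46 and 4.61, 4.44 and 4.46 and 4.19 and 4.31. The changes of both in the pairwise comparisons lay between −0.69 and 0.23 log2 units, and none was called.

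Of the signalling factors, IRF7 and IRF3 were called, and MAVS, IRF1, IRF9 and STAT2 were not. IRF7, which amplifies interferon production, had levels of 5.36 and 5.42 in siCONT with mock, 5.27 and 4.98 in depleted cells with mock, 4.49 and 4.44 in siCONT with TSA and 5.89 and 5.90 in depleted cells with TSA. The siCONT arrays with TSA were the lowest of the 8 and the depleted arrays with TSA the highest. Under TSA the depleted cells differed from siCONT by 1.43 (SE 0.13, adjusted p = 0.00387), and under mock by −0.26 (SE 0.13, adjusted p = 0.239), which was not called. The adjusted p under TSA became 0.127 with siCONT as 1 sample.

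IRF3, which MAVS signalling activates, had levels of 2.68 and 2.67 in siCONT with mock, 2.11 and 2.03 in depleted cells with mock, 1.69 and 1.74 in siCONT with TSA and 1.55 and 1.51 in depleted cells with TSA. No 2 groups overlapped, and the level was highest in siCONT with mock and lowest with depletion plus TSA. The difference between these was −1.14 (SE 0.11, adjusted p = 0.000589), and it held with siCONT as 1 sample (adjusted p = 0.0428). Its second probe changed by −1.17.

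The adaptor MAVS had levels of 3.49 and 3.41 in siCONT with mock, 3.12 and 3.40 in depleted cells with mock, 3.58 and 3.57 in siCONT with TSA and 3.66 and 4.10 in depleted cells with TSA. IRF1, a factor that acts downstream of interferon-γ, had levels of −1.27 and −1.56, −1.14 and −1.12, −0.96 and −1.07 and −1.26 and −1.49 in the same order. IRF9, the DNA-binding part of the interferon complex, had levels of 0.17 and 0.11, 0.29 and 0.57, 0.16 and 0.20 and −0.21 and 1.28. In depleted cells with TSA the siRNAs gave IRF9 levels 1.49 log2 units apart, on opposite sides of siCONT. STAT2, its partner, had levels of 4.74 and 4.72, 4.16 and 4.81, 4.63 and 4.68 and 4.72 and 4.89. The pairwise changes of these 4 genes lay between −0.36 and 0.62 log2 units. The upper end is that of MAVS with TSA in depleted cells, where its other probes changed by between −0.35 and −0.15. With depletion under mock the probe described here changed by −0.19, and the other MAVS probes by between −0.17 and 0.39.

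The 3 secreted ligands had no array well above background. IFNB1, which encodes interferon-β, had measured levels between −6.12 and −5.71 on the 8 arrays. CXCL10 and CXCL11, chemokines that draw T cells, lay between −5.62 and −5.07 and between −5.87 and −3.95. These values have no order, and no fold change is given for them.

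The OAS family makes the 2-5 linked oligoadenylates that act as signal molecules in the antiviral response, except for OASL, which has no such enzyme activity. The members moved differently from each other: OAS1 fell with TSA, OASL fell with TSA in siCONT cells and rose with TSA in depleted cells, and OAS2 and OAS3 were not called. OAS1 had levels of 1.76 and 1.78 in siCONT with mock, 1.90 and 1.31 in depleted cells with mock, −0.06 and −0.19 in siCONT with TSA and −0.32 and 0.53 in depleted cells with TSA. All 4 TSA arrays lay below all 4 mock arrays. The change with TSA was −1.90 (SE 0.32, adjusted p = 0.00609) in siCONT cells and −1.498 (SE 0.32, adjusted p = 0.0122) in depleted cells. Neither was called with siCONT as 1 sample (adjusted p = 0.147 and 0.0512).

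OASL had levels of 0.65 and 0.72 in siCONT with mock, 0.14 and −1.24 in depleted cells with mock, −1.14 and −0.83 in siCONT with TSA and 1.93 and 1.27 in depleted cells with TSA. Depleted arrays lay below siCONT with mock and above it with TSA, and the groups did not overlap under either agent. With mock the difference was −1.24 (SE 0.46, adjusted p = 0.133), not called, and siUHRF1-2 gave the lower level by 1.38. With TSA it was 2.58 (SE 0.46, adjusted p = 0.0178). In depleted cells TSA changed OASL by 2.15 (SE 0.46, adjusted p = 0.0129), a call that held with siCONT as 1 sample (adjusted p = 0.0446), whereas the change under TSA against siCONT did not (adjusted p = 0.19).

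OAS2 was measurable on both depleted arrays with mock, at −2.36 and −1.88, and on neither array of siCONT with mock, where the measured values were −4.21 and −3.62. With TSA 1 array of each group was well above background, the first of siCONT (−3.31 and −5.65) and the second of depleted cells (−3.15 and −2.81). As a bound, depleted cells with mock were at least 2.42-fold higher than siCONT, which was not called (adjusted p = 0.152). The other probes of OAS2 were not above background on any array. OAS3, the largest enzyme of the family, had levels of 1.46 and 1.46 in siCONT with mock, 1.66 and 1.06 in depleted cells with mock, 1.58 and 1.54 in siCONT with TSA and 0.51 and 0.75 in depleted cells with TSA. The last group was the lowest, and no change was called.

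BST2, or tetherin, which holds budding virus particles at the cell surface, was measurable on both arrays of a group only after depletion plus TSA. Its probe (chromosome 19, 17513748 to 17513807, hg19) was not well above background in siCONT with mock (measured −5.48 and −5.55). In depleted cells with mock it was above background with siUHRF1-1 at −3.07 and not with siUHRF1-2 (measured −4.29), and in siCONT with TSA on the second array at −3.27 and not on the first (measured −3.98). In depleted cells with TSA it reached −0.98 and −0.52, and the gene entered the tests only through this group. BST2 was called higher with TSA in depleted cells (adjusted p = 0.00365, and 0.0146 with siCONT as 1 sample) and with depletion under TSA (adjusted p = 0.0118, and 0.125). No exact change is given for either, because 1 of the 2 arrays on the lower side was not above background. Against siCONT with mock, depletion plus TSA was at least 6.26-fold higher (adjusted p = 0.000552). A second probe gave at least 5.11-fold there and at least 6.47-fold for depletion under TSA, where no siCONT array was above background.

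The IFITM genes encode membrane proteins that hinder the fusion of viruses with the cell. They are close neighbours of similar sequence on chromosome 11, so that a probe of one may also read another. IFITM1 had levels of −1.505 and −1.84 in siCONT with mock, 1.66 and 1.73 in depleted cells with mock, −1.99 and −1.88 in siCONT with TSA and −1.20 and 0.001 in depleted cells with TSA. The depleted arrays with mock were the highest of the 8, and depleted cells with TSA lay between them and the siCONT arrays. UHRF1 depletion changed IFITM1 by 3.36 (SE 0.37, adjusted p = 0.0106) with mock, a 10.3-fold difference, and with siCONT as 1 sample the adjusted p was 0.17. TSA lowered it in depleted cells by 2.29 log2 units (SE 0.37, adjusted p = 0.0049, and 0.0235 with siCONT as 1 sample). The second IFITM1 probe gave 3.48 and −1.98 in these comparisons, and was called higher also with depletion under TSA (1.67) and with depletion plus TSA (1.495).

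IFITM2 and IFITM3 fell with TSA and were not called with UHRF1 depletion. IFITM2 had levels of 6.21 and 6.26 in siCONT with mock, 6.54 and 6.45 in depleted cells with mock, 4.77 and 4.81 in siCONT with TSA and 5.12 and 5.18 in depleted cells with TSA. Those of IFITM3 were 6.43 and 6.46, 6.74 and 6.70, 5.18 and 5.19 and 5.61 and 5.66 in the same order. In both genes all TSA arrays lay below all mock arrays, and depleted cells lay above siCONT under each agent. In depleted cells TSA changed IFITM2 by −1.35 (SE 0.11, adjusted p = 0.00052) and IFITM3 by −1.09 (SE 0.11, adjusted p = 0.000863). Both calls held with siCONT as 1 sample (adjusted p = 0.0151 and 0.0259), while those in siCONT cells did not (0.0887 and 0.109).

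**Figure D3:**
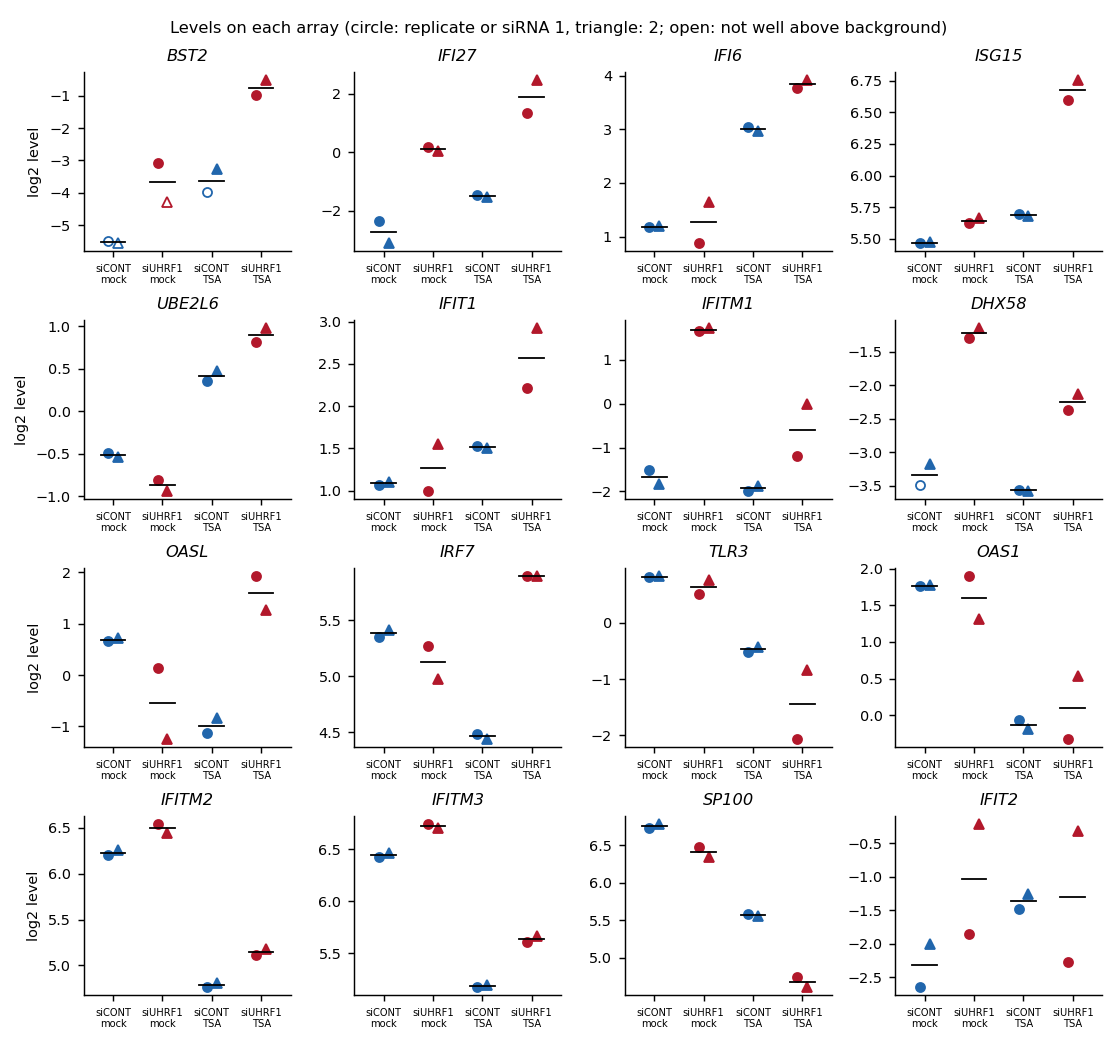
Log2 levels of 16 members on each array, with siCONT in blue, UHRF1-depleted cells in red, circles for replicate or siRNA 1, triangles for 2, open symbols where the probe was not well above background, and a line at the mean of a group. Each panel has its own axis; IFITM1 is highest with depletion and mock (1.66 and 1.73), and BST2, IFI27, IFI6 and ISG15 are highest with depletion and TSA.

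The IFIT proteins bind viral RNA at its capped or uncapped end, and those measured here did not move as one. IFIT1 had levels of 1.07 and 1.11 in siCONT with mock, 1.000 and 1.55 in depleted cells with mock, 1.53 and 1.501 in siCONT with TSA and 2.22 and 2.92 in depleted cells with TSA. The last group was above all other arrays. Depletion plus TSA changed it by 1.48 (SE 0.28, adjusted p = 0.0065), and the call was lost with siCONT as 1 sample (adjusted p = 0.0752). IFIT2 had levels of −2.64 and −1.998, −1.85 and −0.21, −1.48 and −1.25 and −2.28 and −0.31 in the same order. Its level followed the siRNA: siUHRF1-2 lay above siUHRF1-1 by 1.64 with mock and by 1.97 with TSA. The siRNA term of the fit was 1.80 (SE 0.25, adjusted p = 0.0354), the one such call among 41 members. Of all genes 0.734% were called higher with siUHRF1-2 and 0.851% lower. With siCONT as 1 sample 0 members were called by limma (7 at an unadjusted p under 0.05), beside 0.0111% of all genes.

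IFIT3 was well above background on both siUHRF1-2 arrays, at −2.26 with mock and −2.92 with TSA, on the second siCONT array with TSA (−3.28), and on no siUHRF1-1 array, so it could not be tested. IFIT5 had levels of 1.03 and 0.93 in siCONT with mock, 1.25 and 1.18 in depleted cells with mock, 2.001 and 2.01 in siCONT with TSA and 1.09 and 1.39 in depleted cells with TSA. The siCONT arrays with TSA stood above all others, and the change with TSA in siCONT cells was 1.02 (SE 0.14, adjusted p = 0.00304), which was not called with siCONT as 1 sample (adjusted p = 0.175).

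MX1 and MX2 encode dynamin-like GTPases that trap viral components. MX2 had levels of −2.24 and −2.32 in siCONT with mock and −0.53 and −1.998 in depleted cells with mock, where siUHRF1-1 lay 1.47 higher than siUHRF1-2. In siCONT with TSA it was not well above background (measured −3.40 and −3.83), and in depleted cells with TSA it was at −1.86 and −1.94. The depleted cells were at least 3.14-fold higher than siCONT under TSA (adjusted p = 0.0482, and 0.322 with siCONT as 1 sample). MX2 entered that test only through the depleted arrays. The other probe of MX2 was at background on all 4 TSA arrays. MX1 lay above siCONT in depleted cells under either agent, by 0.63 with mock and 0.65 with TSA on the log2 scale, and neither difference was called.

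SAMD9, a cytoplasmic factor that restricts poxviruses, had levels of −2.61 and −2.35 in siCONT with mock, −1.82 and −1.56 in depleted cells with mock, −0.59 and −0.69 in siCONT with TSA and −0.47 and −0.86 in depleted cells with TSA. All TSA arrays lay above all mock arrays. TSA changed SAMD9 by 1.84 (SE 0.18, adjusted p = 0.00131) in siCONT cells and by 1.02 (SE 0.18, adjusted p = 0.00721) in depleted cells, and only the second held with siCONT as 1 sample (adjusted p = 0.0794 and 0.0475). SAMD9L, its neighbour on chromosome 7, was not well above background in siCONT with mock (measured −4.20 and −4.88) and was on both depleted arrays with mock (−3.40 and −1.98) and both siCONT arrays with TSA (−3.10 and −2.99). In depleted cells with TSA the second array was above background at −2.99. None of its changes was called.

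SP100, a protein of nuclear bodies that limits viral gene expression, had levels of 6.72 and 6.78 in siCONT with mock, 6.47 and 6.35 in depleted cells with mock, 5.58 and 5.56 in siCONT with TSA and 4.74 and 4.62 in depleted cells with TSA. On the probe described here no groups overlapped, and the order ran down from siCONT with mock to depletion plus TSA. The difference between these ends was −2.07 (SE 0.12, adjusted p = 0.000147), and the adjusted p with siCONT as 1 sample was 0.0116. The other probes of SP100, of which one reads −0.41 and one −0.52 there, moved by over 1 log2 unit less and were not called. With TSA in siCONT cells they changed by 0.25 and −0.84 in the same order, against −1.18 on the first probe. ISG20, an exonuclease, had levels of 4.27 and 4.34 in siCONT with mock, 4.42 and 4.23 in depleted cells with mock, 4.94 and 4.92 in siCONT with TSA and 5.78 and 4.85 in depleted cells with TSA. Its change with depletion plus TSA, 1.01 (SE 0.29, adjusted p = 0.0308), was larger with siUHRF1-1 than with siUHRF1-2, and both lay above siCONT with mock. It was not called with siCONT as 1 sample (adjusted p = 0.185). Of the effectors not yet described, ADAR, the editor of double-stranded RNA, and CMPK2 were measured on all arrays and changed by between −0.34 and 0.33 in the pairwise comparisons. RSAD2 (viperin) and TRIM22 had no array above background.

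ISG15 is a ubiquitin-like protein, UBE2L6 the enzyme that passes it on, HERC5 the ligase that attaches it to targets, and USP18 the protease that removes it. ISG15 and UBE2L6 rose, and HERC5, HERC6 and USP18 were not called. ISG15 had levels of 5.47 and 5.47 in siCONT with mock, 5.62 and 5.67 in depleted cells with mock, 5.69 and 5.68 in siCONT with TSA and 6.60 and 6.76 in depleted cells with TSA. The last group stood apart from the other 6 arrays, which lay between 5.47 and 5.69. In depleted cells TSA changed ISG15 by 1.03 (SE 0.11, adjusted p = 0.00129), and this held with siCONT as 1 sample (adjusted p = 0.0303). Under TSA the difference between depleted cells and siCONT was 0.99, just under 2-fold and so not called (adjusted p = 0.00615).

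UBE2L6 had levels of −0.50 and −0.54 in siCONT with mock, −0.81 and −0.94 in depleted cells with mock, 0.35 and 0.48 in siCONT with TSA and 0.81 and 0.98 in depleted cells with TSA. TSA arrays lay above mock arrays throughout, and depletion lay below siCONT with mock and above it with TSA. The change with TSA in depleted cells was 1.77 (SE 0.12, adjusted p = 0.000322), and with siCONT as 1 sample its adjusted p was 0.00813. HERC5 was higher by 0.94 with TSA in siCONT cells and by 0.83 in depleted cells on the log2 scale, and HERC6 by 0.65 and 0.32. Neither gene was called, although a dimmer probe of HERC6 was called with TSA in siCONT cells (1.13). USP18 differed by between −0.55 and −0.02 in the 5 pairwise comparisons.

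PARP9, DTX3L and PARP14 act in ADP-ribosylation, and PARP9 works with the ubiquitin ligase DTX3L, its neighbour on chromosome 3. PARP9 had levels of −0.01 and 0.16 in siCONT with mock, 1.03 and 0.88 in depleted cells with mock, 0.64 and 0.68 in siCONT with TSA and −0.36 and 0.32 in depleted cells with TSA. Depletion went with a higher level under mock and a lower one under TSA, and neither difference was called (0.88 and −0.68). A second probe of PARP9 had mean levels of −0.89 and −0.55 with mock (siCONT, then depleted cells) and −0.61 and −0.68 with TSA. With TSA it was at −1.17 with siUHRF1-1 and −0.19 with siUHRF1-2, on either side of siCONT (−0.63 and −0.59). DTX3L differed by 0.26 under mock and −0.98 under TSA, and PARP14 by −0.10 and −0.50. Those differences were not called either.

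IFI27 and IFI6 encode small membrane proteins of a single family and were among the members that rose most. IFI27 (chromosome 14, 94582967 to 94583026, hg19) had levels of −2.37 and −3.10 in siCONT with mock, 0.18 and 0.05 in depleted cells with mock, −1.47 and −1.54 in siCONT with TSA and 1.34 and 2.46 in depleted cells with TSA. The 4 groups did not overlap, and depleted cells were higher under each agent. Depletion changed IFI27 by 2.85 (SE 0.40, adjusted p = 0.0179) under mock and by 3.41 (SE 0.40, adjusted p = 0.00636) under TSA, and neither was called with siCONT as 1 sample (adjusted p = 0.198 and 0.072). Depletion plus TSA gave a 24.8-fold difference from siCONT with mock (4.63 (SE 0.40, adjusted p = 0.000457)), which was called in that fit too (adjusted p = 0.00912).

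IFI6 (chromosome 1, 27992837 to 27992896, hg19) had levels of 1.17 and 1.19 in siCONT with mock, 0.88 and 1.65 in depleted cells with mock, 3.04 and 2.97 in siCONT with TSA and 3.78 and 3.92 in depleted cells with TSA. TSA arrays lay above mock arrays in every case. The change with TSA was 1.82 (SE 0.25, adjusted p = 0.00307) in siCONT cells and 2.58 (SE 0.25, adjusted p = 0.000823) in depleted cells, with an adjusted p of 0.118 and 0.00819 when siCONT was 1 sample. IFI35, which binds other interferon-induced proteins, differed by between −0.94 and 0.63 in the pairwise comparisons and was not called. IFI44, IFI44L, XAF1 and EPSTI1 had no array well above background.

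The difference between the UHRF1 effects under TSA and under mock was tested as an interaction. It was called for 4 members of 41: OASL and IRF7 were higher and PARP9 and IFIT5 lower. Over all 18413 genes, 3.01% were called higher and 2.03% lower. With siCONT as 1 sample limma called 0 members (5 at an unadjusted p under 0.05) and 0% of all genes. For OASL the interaction was 3.82 (SE 0.65, adjusted p = 0.0332) and for IRF7 1.69 (SE 0.19, adjusted p = 0.0175). With the replicate number as a block, under which the depleted arrays of a number share their siRNA, OASL and IRF7 were still called (adjusted p = 0.0476 and 0.037) and PARP9 and IFIT5 were not (0.0658 and 0.073). IFITM1 and IFIT1, each called with depletion under one agent alone, were not shown to respond differently under the other. The interaction was −2.03 (SE 0.53, adjusted p = 0.0738) for IFITM1 and 0.87 (SE 0.39, adjusted p = 0.203) for IFIT1. None is given for MX2, which was not above background in siCONT with TSA. Nor is one given for BST2, which was not above background in siCONT with mock.

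**Figure D4:**
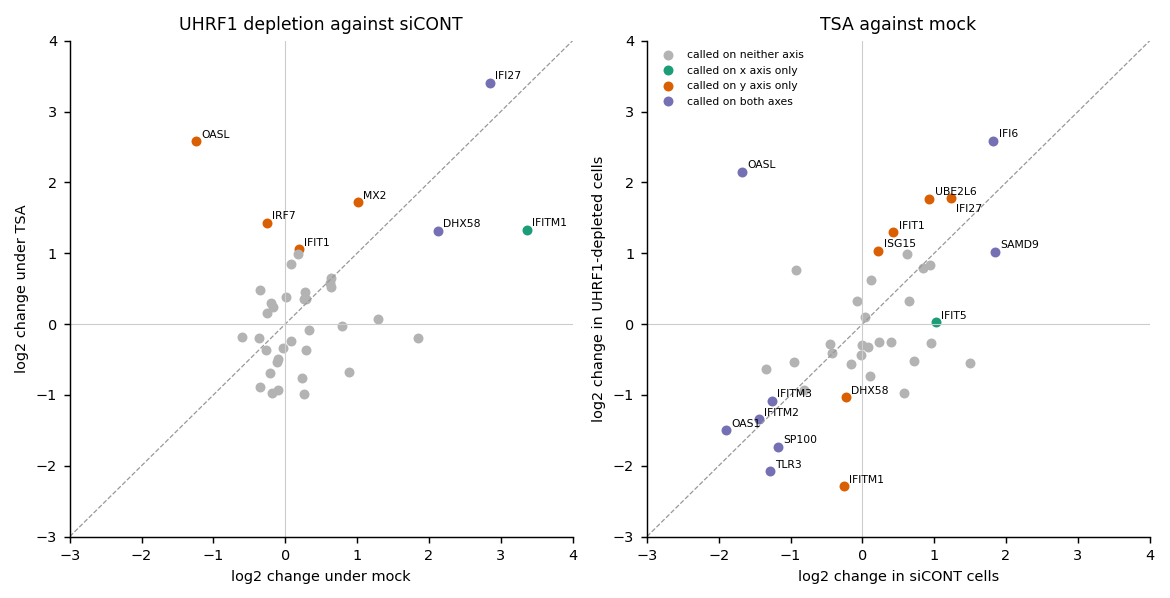
Log2 change of members with UHRF1 depletion under mock and under TSA (left) and with TSA in depleted and in siCONT cells (right), for members tested on both axes; BST2 was not tested under mock or in siCONT cells and is not drawn. Colours give the axes on which the member was called and the dashed line marks equal change; IFI27 and DHX58 were called on both axes at left, and OASL, at 2.15 in depleted cells and −1.67 in siCONT cells, is the gene far above the line at right.

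The siRNAs were next set side by side for each member. Of the 36 members well above background on all arrays, 6 differed by more than 1 log2 unit between the siRNAs under at least 1 agent. The same count over all genes was not made. Over the 19898 probes above background on all arrays, the difference between the siRNAs had an SD of 0.489 with mock and 0.422 with TSA. IFIT2 was higher with siUHRF1-2 under both agents. OASL was lower with siUHRF1-2 by 1.38 with mock and by 0.66 with TSA. With TSA siUHRF1-2 gave the higher level of TLR3 (by 1.22), IRF9 (by 1.49), IFITM1 (by 1.20) and IFI27 (by 1.12). With siUHRF1-1 and siUHRF1-2, IFI27 lay above the siCONT mean by 2.91 and 2.78 log2 units with mock and by 2.84 and 3.97 with TSA. IFITM1 lay above it by 3.33 and 3.40 with mock, and IRF7 by 1.43 with either siRNA under TSA. For these 3 members both siRNAs moved the level the same way.

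**Figure D5:**
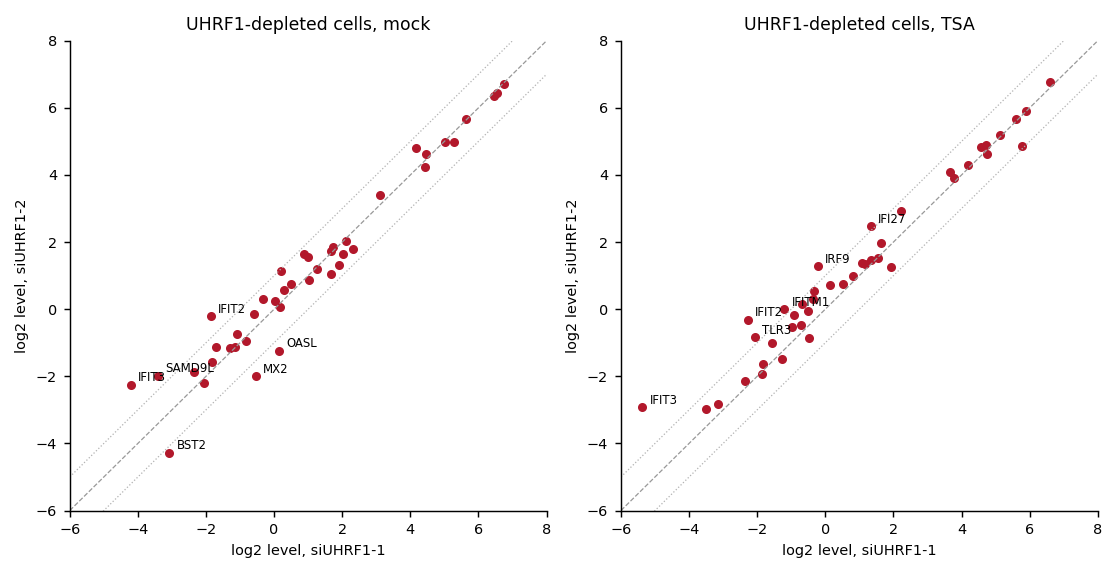
Log2 levels of members with siUHRF1-2 (vertical) against siUHRF1-1 (horizontal) in UHRF1-depleted cells with mock (left) and TSA (right), for members well above background on at least 1 of the 2 arrays. The dashed line marks equal levels and dotted lines 1 log2 unit; members farther apart than that are named, among them IFIT2 in both panels and OASL with mock.

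Other genes of the pathway were counted from 3 lists. Of 21 interferons, receptors, kinases and inhibitors, 15 were above background on at least 1 array. SOCS1, an inhibitor of interferon receptor signalling, rose with TSA in depleted cells by 1.79 (SE 0.23, adjusted p = 0.00218) and was at least 5.44-fold higher with depletion plus TSA than in siCONT with mock. It was the one gene of the list called in each of these comparisons, of 13 tested. Of all genes, 12.2% and 15.3% were called higher there. With TSA in siCONT cells 3 of 14 were called higher, led by IFNAR1 (1.45 (SE 0.27, adjusted p = 0.00877)), a receptor chain of interferon-β, and 1 lower, PTPN6. These shares stood beside 10.4% and 8.32% of all genes, and with siCONT as 1 sample none of the 4 was called.

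Of 27 other sensors and adaptors 20 were above background on at least 1 array. With TSA in siCONT cells IRF8, a transcription factor of the interferon-regulatory family, was the one called lower of 19 tested, beside 8.32% of all genes. It was at least 5.09-fold lower with TSA, since it was not above background there, and at least 2.61-fold higher with UHRF1 depletion under TSA. Neither was called with siCONT as 1 sample (adjusted p = 0.0793 and 0.24). In depleted cells TSA changed IRF8 by −1.51 (SE 0.25, adjusted p = 0.00532), which held in that fit (adjusted p = 0.0325). The sensors of cytoplasmic DNA MB21D1, IFI16, AIM2 and ZBP1 were not above background on any array.

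Of 42 other interferon-induced genes 36 were above background on at least 1 array. BATF2, a transcription factor, was the one of 32 called higher with UHRF1 depletion under mock and the one of 33 called higher under TSA, where 2 others were called lower. The shares of all genes called higher were 3.3% and 5.91%. As no siCONT array was above background, BATF2 entered both tests only through the depleted arrays. Depleted cells were at least 5.33-fold higher with mock and at least 5.49-fold higher with TSA (adjusted p = 0.0555 and 0.0313 with siCONT as 1 sample). Depletion plus TSA called 4 of 33 higher, led by BATF2 and APOBEC3G, and 4 lower, led by GBP3 (−2.18 (SE 0.25, adjusted p = 0.00121)) and PARP10 (−1.96 (SE 0.24, adjusted p = 0.00147)). The shares of all genes there were 15.3% and 11.1%, and with siCONT as 1 sample 2 and 3 were called.

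Markers of other cell types were examined too, in these cells of 1 line. PTPRC, CD3E, COL1A2 and PECAM1 had no array well above background, DCN had 1, COL1A1 on the 4 TSA arrays, and CD14 on all 8. The summed level of the 7 markers, in units of the array's 75th percentile, was 0.559 and 0.654 in siCONT with mock, 1.81 and 0.860 in depleted cells with mock, 0.760 and 0.829 in siCONT with TSA, and 1.86 and 1.88 in depleted cells with TSA. The sum was thus higher on every depleted array than on any siCONT array, at the closest 0.860 against 0.829. It includes signals that were not above background, and with mock CD14 was the only one of these markers above it. COL1A1 was at least 7.67-fold higher with TSA in depleted cells, and CD14 had mean levels of −1.45 and −1.75 in siCONT with mock and TSA and of 0.02 and −0.17 in depleted cells, differences that were not called. The summed level of the 7 epithelial markers was 991 and 972 in siCONT with mock and 804 and 721 in depleted cells with mock. With TSA it was 1072 and 1078 in siCONT and 966 and 852 in depleted cells. KRT18 and KRT8 lay lower in depleted cells under each agent, differences that were not called. With mock KRT18 had levels of 9.29 and 9.23 in siCONT and 8.80 and 8.56 in depleted cells. By contrast KRT20, a keratin of differentiated colon cells, rose with depletion under mock (2.94 (SE 0.37, adjusted p = 0.0134)). That call rests on taking the siCONT arrays as 2 samples. VIL1 had levels of 2.60 and 2.60 in siCONT with mock and 3.72 and 4.33 in depleted cells with mock, a difference not called. With TSA in depleted cells VIL1 fell (−2.50 (SE 0.37, adjusted p = 0.00366)). The part of these shifts in the members' values was not tested, and in bulk RNA a change in the number of cells of a kind cannot be told apart from a change per cell.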

How the data were processed

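RNA of 8 DLD1 samples was measured on 1-colour Agilent arrays. The deposited files hold a spot intensity on a linear scale, background-subtracted by the authors with Feature Extraction 10.7.3.1 and not scaled between arrays. Outlier spots were left out, 0 spots were saturated, and repeated spots were averaged. Levels (log2 of the intensity minus the array's 75th percentile) were modelled by limma 3.58.1 (R 4.3.3) with 4 group means and all 8 arrays (4 residual degrees of freedom, prior 2.17). The fit with siCONT as 1 sample used 6 samples, with 2 residual degrees of freedom left. A probe was tested if well above background on both arrays of a compared group (24589 probes in all). Calls needed a two-sided Benjamini-Hochberg adjusted p under 0.05 and at least 2-fold. Where no array of a group was above background, a gene has a bound there, "at least N-fold", set against the lowest signal above background there. A tested gene with such a bound entered the test only through the other group. Other background correction, scaling, filters, a replicate block, the methods' t-test and left-out arrays were tried. The fit was tested on simulated data with independent noise of equal size on every array. The spread of these data differs between siCONT and depletion groups, so that test cannot tell how far this difference affects the calls. The number of arrays limits the precision. The submitters' table of 1 intensity per probe and array holds the same measurement and served as an alternative. Values on every array are given for members called in a comparison or above background on both arrays of one group and no array of another, and for all OAS, sensor and signalling members. The members and lists were chosen with earlier results of these data known. Some genes of the pathway lists are not reported here.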

Additional observations from a re-analysis of the deposited data

Results flagged for a closer look

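The UHRF1 effect differed between TSA and mock for 4 members, by the interaction term of the limma fit, in which a positive value means a higher UHRF1 effect under TSA. OASL had an interaction of 3.82 log2 units (SE 0.65, adjusted p = 0.0332): both depleted arrays lay below siCONT with mock and above it with TSA. IRF7 had 1.69 (SE 0.19, adjusted p = 0.0175), with both siRNAs 1.43 above siCONT under TSA. PARP9 had −1.56 (SE 0.32, adjusted p = 0.0482), and IFIT5 had −1.001 (SE 0.19, adjusted p = 0.0433). A second PARP9 probe had mean levels of −0.89 in siCONT and −0.55 in depleted cells with mock. With TSA they were −0.61 and −0.68, so the UHRF1 effects under the agents lay closer together on that probe. None of the 4 was called with siCONT as 1 sample, where their adjusted p lay between 0.390 and 0.564. Under the replicate block 2 of the 4 calls held, OASL and IRF7 (adjusted p = 0.0476 and 0.037), and those of PARP9 and IFIT5 did not (0.0658 and 0.073).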

How the results depend on the processing

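Averaging the siCONT arrays of an agent to 1 sample changed the most. The number of members called fell from 3 to 0 for UHRF1 depletion under mock, from 9 to 0 for TSA in siCONT, from 7 to 0 for UHRF1 depletion under TSA, from 4 to 0 for the interaction and from 1 to 0 for the siRNA difference. It fell from 15 to 13 for TSA in UHRF1-depleted cells and from 15 to 10 for depletion plus TSA. Of 54 calls of a member in a comparison, 23 held in that fit. No call changed its direction under any of the limma alternatives run. UHRF1 depletion under TSA had 7 calls, and 11 with median scaling and 4 with normexp background correction. The interaction had 4 calls, and 2 with quantile normalization, 2 with the percentile over probes above background on all arrays, and 0 without a filter on dim probes. The siRNA difference had 1 call, and 0 with median scaling, 0 with normexp, 0 without a filter and 2 with probes kept only if all arrays were above background. The methods' t-test gave 9 calls for TSA in UHRF1-depleted cells at its unadjusted threshold. After Benjamini-Hochberg adjustment it gave 0 there, 0 for UHRF1 depletion under mock, 0 for UHRF1 depletion under TSA and 7 for depletion plus TSA.

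Leaving out 1 array at a time gave 1 to 5 calls for UHRF1 depletion under mock (1 without either siCONT array with mock, 5 without siUHRF1-1 with mock), 6 to 10 for TSA in siCONT (6 without the second siCONT array with mock), 1 to 8 for UHRF1 depletion under TSA (1 without either siCONT array with TSA), 13 to 17 for TSA in UHRF1-depleted cells, 13 to 16 for depletion plus TSA, 0 to 6 for the interaction (0 without any 1 siCONT array) and 0 to 3 for the siRNA difference. A lone array was then assumed to vary like the other groups.

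Replicate numbers did not pair the siCONT arrays with others: the within-group differences of groups correlated between −0.06 and 0.07, except 0.34 between the depletion groups, which share their siRNAs. With the replicate number as a block, the interaction had 2 calls, the siRNA difference 0, and 51 of the 54 calls held. The slide could not be used as a block, since all arrays shared 1. Members not above background on any array, among them IFNB1 and CXCL10, allow no comparison at the sensitivity of these arrays.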
